A study of Mus musculus with 8 samples.

Results

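Mitotic genes are a list of 41 genes whose products run cell division, and their rows were followed in the count tables of 2 mouse pancreatic tumors. The members were chosen by symbol, with earlier results of these data known. All 41 of them were found among the 27775 gene rows of both tables. Each member was detected in both tumors, with 24094 UMIs (unique molecular identifiers, the counted captured RNA molecules) of the 41 genes in the medium tumor and 4571 in the large tumor. The levels were described across macrophages, stromal cells and carcinoma states that were called from other marker genes. The members and other listed cell cycle genes were kept out of the clustering, but unlisted genes that follow the members were not.

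The tumors were pancreatic ductal adenocarcinomas of untreated KPC mice, a model that carries LSL-Trp53R172H/+ switched on by Pdx-1-Cre, a Cre recombinase driven by a promoter of pancreatic progenitor cells. All cells of both tumors came from this one genotype, and no normal pancreas was compared. One tumor was labelled medium and the other large, and the 4 libraries listed for each size are named technical replicates and were held together in 1 table. Cells were dissociated with a Miltenyi kit and sequenced with 10x Genomics 3′ chemistry (v2), which reads the 3′ end of each captured RNA. The size label therefore cannot be told apart from the animal, and no test between tumors, classes or states was possible.

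Levels are given as CPM, the UMIs of a gene per 1e+06 UMIs of the cells that were summed, and were not divided by gene length since each molecule was counted at its 3′ end. Intervals are exact 95% intervals for counting error only, and do not cover the spread between animals. Those on UMIs also treat each UMI as independent, so they leave out the spread between cells. They are too narrow where few cells hold most of the UMIs. The medium tumor held 2812 cells with a median of 5456.5 UMIs, and the large tumor held 1533 cells with a median of 1037 UMIs. The tables shared 5 cell barcodes. A member at 3 UMIs or fewer in a group was read as not measurable there.

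Cell division is driven by the kinase CDK1 with its cyclins, which start mitosis, and by the anaphase-promoting complex, which marks the cyclins for destruction and so ends it. Between these steps the spindle attaches to the kinetochores of the condensed chromosomes, a checkpoint delays separation until all of them are attached, and cytokinesis parts the daughter cells. Transcripts of most of these genes accumulate in the G2 and M phases, and many of their promoters are known to carry CCAAT boxes and a cell cycle genes homology region, an element with the letters TTTGAA.

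The promoter windows of the members were searched for these elements because the genes were measured together in the same cells. RefSeq windows (GRCm38.p6) from 250 bases before to 50 after the transcript start were found for 35 of the 41 members, and Ccna2, Aurkb, Tpx2, Kif20a, Cdc25c and Smc4 had no entry. On either strand, TTTGAA was present in 28 of the 35 members (80.0%) and in 20.2% of the 27025 genes with a window. CCAAT was present in 28 of 35 (80.0%) against 41.1% of all genes, and both together were present in 24 of 35 (68.6%) against 7.97%. At least 2 copies of CCAAT were found in 20 of 35 members and in 13.3% of all genes. TTTGAA lay wholly before the start in 14 of the 35 members, against 18.3% of all genes, and in the others with a match it reached into or lay within the 50 bases from the start on. These are matches of letters in a window, and binding was not measured. The 150 bases before the start of 7 members are printed as examples of the matches and of a stretch without TTTGAA, 5′ to 3′ along the gene, and are not a sample of the list, since Birc5 and Cks2 among others hold no TTTGAA in the window. They are shown with TTTGAA and CCAAT matches, on either strand, in capitals (TTCAAA and ATTGG are the same letters read from the other strand).
Top2a (chr11:99024190-99024339, - strand): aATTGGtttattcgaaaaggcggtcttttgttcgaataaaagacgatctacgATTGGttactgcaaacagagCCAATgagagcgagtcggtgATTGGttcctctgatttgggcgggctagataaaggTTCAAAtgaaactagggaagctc
Ube2c (chr2:164769779-164769928, + strand): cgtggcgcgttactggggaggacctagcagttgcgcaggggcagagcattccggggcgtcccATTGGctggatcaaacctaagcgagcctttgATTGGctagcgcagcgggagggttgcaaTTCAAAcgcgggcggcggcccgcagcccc
Cdc20 (chr4:118437344-118437493, - strand): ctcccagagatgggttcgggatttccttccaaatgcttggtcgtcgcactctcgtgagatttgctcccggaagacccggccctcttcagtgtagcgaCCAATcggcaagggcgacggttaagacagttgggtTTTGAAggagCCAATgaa
Cdk1 (chr10:69352913-69353062, - strand): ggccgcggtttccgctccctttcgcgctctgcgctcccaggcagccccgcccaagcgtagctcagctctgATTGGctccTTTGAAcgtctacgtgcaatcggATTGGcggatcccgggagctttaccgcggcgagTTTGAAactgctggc
Mki67 (chr7:135716380-135716529, - strand): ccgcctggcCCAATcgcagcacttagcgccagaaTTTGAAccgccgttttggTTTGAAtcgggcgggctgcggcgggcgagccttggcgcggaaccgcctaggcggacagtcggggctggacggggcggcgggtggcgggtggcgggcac
Hmgb2 (chr8:57511693-57511842, + strand): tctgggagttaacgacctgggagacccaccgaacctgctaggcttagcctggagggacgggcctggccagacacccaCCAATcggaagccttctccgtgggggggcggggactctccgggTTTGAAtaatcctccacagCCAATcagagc
Ccnb1 (chr13:100786487-100786636, - strand): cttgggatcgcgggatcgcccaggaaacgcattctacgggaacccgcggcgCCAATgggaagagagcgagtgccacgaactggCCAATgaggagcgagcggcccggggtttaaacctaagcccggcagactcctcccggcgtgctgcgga

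The 6 members with a TTTGAA match in these stretches are Top2a, Ube2c, Cdc20, Cdk1, Mki67 and Hmgb2. In Top2a, Ube2c, Cdc20, Cdk1 and Hmgb2 the match nearest to the start began between 15 and 30 bases before it, and each of them also held a CCAAT match farther from the start. In Mki67 the nearest TTTGAA match began 98 bases before the start. Ccnb1 held 2 CCAAT matches and no TTTGAA in the stretch.

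Hmgb2, Cks2, Birc5, Cenpa, Ube2c and Smc4 had the most UMIs of the members in both tumors. Hmgb2, a chromatin protein of the high mobility group, stood highest in the medium tumor with 4826 UMIs or 238 CPM (231 to 245), and in the large tumor it stood highest with 1092 UMIs or 488 CPM (459 to 518). Cks2, a small subunit that binds CDK1, followed with 138 CPM (133 to 144) in the medium tumor and 317 CPM (294 to 341) in the large tumor. The 5 most abundant members of the medium tumor, Hmgb2, Cks2, Birc5, Cenpa and Ube2c, made up 47.0% of all member UMIs there. The kinases of mitosis lay at the other end. Ttk, the checkpoint kinase known as MPS1, was lowest in the medium tumor with 22 UMIs or 1.08 CPM (0.679 to 1.64), and had 5 UMIs in the large tumor. In all, 27 members reached 200 UMIs in the medium tumor and 6 did so in the large tumor, so the large tumor supports statements on single genes mainly for Hmgb2, Cks2, Birc5, Cenpa, Smc4 and Ube2c.

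Among CDK1, its cyclins and their regulators, Cdk1 was at 37.5 CPM (34.9 to 40.3) in the medium tumor and 56.7 CPM (47.3 to 67.5) in the large tumor. The B-type cyclins Ccnb1 and Ccnb2, which activate CDK1 at mitosis, were at 22.1 and 31.9 CPM in the medium tumor and at 29.9 and 59.0 CPM in the large tumor. Ccna2, the cyclin of S and G2 phase, was at 20.8 CPM against 38.0 CPM. Cdca3, which helps to destroy the CDK1 inhibitor WEE1, was at 48.7 CPM against 57.2 CPM. Cdc25c, the phosphatase that activates CDK1, had 103 UMIs (5.07 CPM) in the medium tumor and 2 UMIs in the large tumor. The partners of the anaphase-promoting complex are its ubiquitin-conjugating enzyme Ube2c, at 58.6 and 98.7 CPM in the medium and large tumor, and its activator Cdc20, at 31.4 and 39.3 CPM.

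The chromosomal passenger subunits Birc5 (survivin) and Cdca8 (borealin) were at 63.0 and 30.2 CPM in the medium tumor and at 133 and 53.6 CPM in the large tumor. Their kinase partner Aurkb was at 6.40 and 11.2 CPM. The spindle pole kinase Aurka was at 8.23 and 9.83 CPM, the polo-like kinase Plk1 at 6.60 and 7.15 CPM, and the checkpoint kinases Bub1 and Bub1b at 4.58 and 7.29 CPM in the medium tumor and at 4.02 and 16.1 CPM in the large tumor. In the kinetochore group, Cenpa, the histone H3 variant of centromeres, stood highest with 60.6 and 127 CPM. Cenpf was at 36.0 and 42.9 CPM and the kinesin Cenpe at 18.1 and 34.4 CPM. The NDC80 complex subunits Ndc80 and Nuf2, which bind microtubules, stayed at 2.56 and 4.14 CPM in the medium tumor.

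The spindle genes lay between 3.45 and 19.7 CPM in the medium tumor. Tpx2, which activates Aurora A on the spindle, and Nusap1 were at 19.7 and 15.2 CPM in the medium tumor, and the kinesins Kif11, Kif2c and Kif22 lay between 3.45 and 11.0 CPM. Hmmr, Ckap2 and Ckap2l, which bind spindle microtubules, lay between 8.08 and 13.1 CPM there. Of the cytokinesis genes, the midzone bundler Prc1 was at 22.3 CPM and Racgap1, a subunit of centralspindlin, at 20.8 CPM in the medium tumor. Kif23, its kinesin partner, was at 17.8 CPM, the scaffold Anln at 10.6 CPM. The RHOA activator Ect2 had 244 UMIs there, and the kinesins Kif20a and Kif20b were at 6.75 and 7.24 CPM. Among the genes of chromosome structure, Smc4, a condensin subunit, was at 58.3 CPM, Top2a, which untangles DNA, at 39.5 CPM and Mki67, the Ki-67 antigen that coats mitotic chromosomes, at 23.3 CPM. Hmgb2 and Cks2 have close relatives elsewhere in the genome, and how reads shared with such copies were counted is not given in the sources used here.

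The members were concentrated in few cells. In the medium tumor 635 of 2812 cells (22.6%, exact binomial interval 21.0 to 24.2) had no UMI of any member, 1635 cells had between 1 and 4 members, and 139 cells had 20 or more, up to 37 members in 1 cell. The 281 cells (10%) with the highest share of member UMIs held 66.4% of them, with a median of 18 members detected against 1 in the other cells, and with a median depth of 7414 against 5355 UMIs. The corresponding 153 cells of the large tumor held 58.7%, with a median of 8 members against 0, and 766 of 1533 cells had none. To describe each gene without its own help, cells were ranked by the other 40 members, and the CPM of the gene in the top 10% was set against its CPM in the rest.

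Of the 41 members, 39 were at least 5-fold higher in these cells of the medium tumor, but the count in the large tumor includes genes with very few UMIs and is not read. Of the members with at least 200 UMIs, 25 of 27 were 5-fold or more higher in the medium tumor and 5 of 6 in the large tumor, where Cks2 was at 3.25-fold. Among genes outside the list with at least 200 UMIs, ranked on all members, 24 of 7811 (0.307%) were 5-fold or more higher in the medium tumor and 0 of 1541 in the large tumor. Among genes outside the list in the medium tumor, 113 of 7811 with at least 200 UMIs (1.45%) were 2-fold or more higher, with 10 CPM added, in the cells highest in all members, and 29 of 1541 (1.88%) in the large tumor. In the medium tumor Cenpf had the widest contrast, with 232 CPM in the top cells and 5.85 CPM in the rest, a ratio of 39.7 (32.2 to 49.4). Ube2c followed with 375 against 10.3 CPM (36.3-fold, 31.0 to 42.8), and Aurkb, Nusap1, Hmmr, Plk1, Nuf2, Tpx2 and Aurka lay between 26.9-fold and 32.0-fold with overlapping intervals. Hmgb2 was at 1065 against 111 CPM (9.59-fold, 9.05 to 10.2), and Smc4 at 219 against 34.1 CPM (6.43-fold). The other cells of this ranking still include cells with several members, and free RNA in the droplets was not measured.

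Cks2 and Kif23 were the 2 members under 5-fold in the medium tumor. Cks2 was at 439 CPM in the top cells and 92.2 CPM in the rest (4.76-fold, 4.41 to 5.13), and 265 of the 1188 cells with a Cks2 UMI had no other member. Kif23 was at 53.2 against 12.4 CPM (4.30-fold, 3.46 to 5.33), well under its cytokinesis partners Racgap1 at 10.7-fold and Prc1 at 20.8-fold. Kif23 was at 8.67-fold in the large tumor, from 32 UMIs. By carcinoma state, described in a later paragraph, Kif23 was at 23.1 CPM in the gastric pit state and 15.8 CPM in the Dmbt1 and Sftpd state, where the other 6 cytokinesis genes lay at 8.60 and 3.76 CPM or less.

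**Figure D1:**
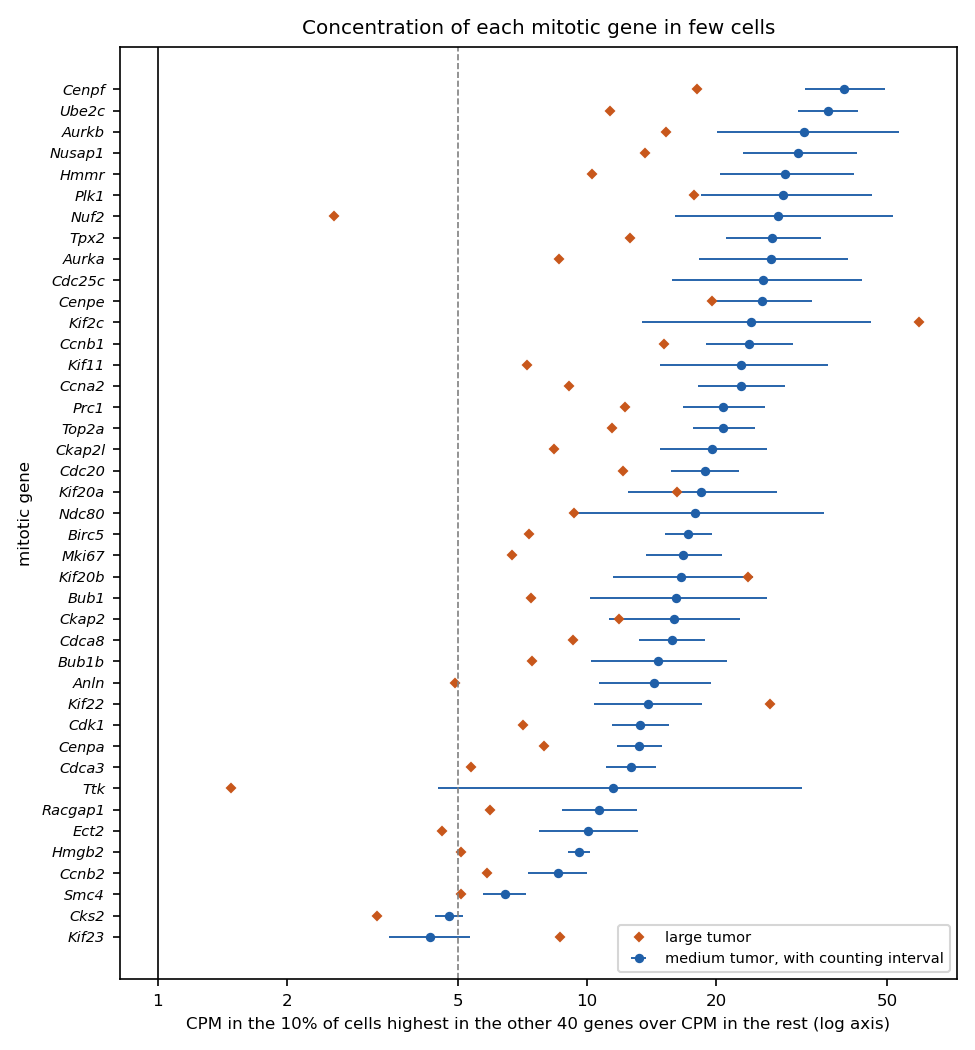
Ratio of each gene's CPM in the 10% of cells highest in the other 40 mitotic genes to its CPM in the remaining cells, on a log axis, for the medium tumor (circles, lines are 95% counting intervals) and the large tumor (diamonds, without intervals, Cdc25c left out because all its UMIs lay in the top cells). The dashed line marks 5-fold, and in the medium tumor the genes run from Kif23 at 4.30 to Cenpf at 39.7.

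Genes outside the list followed the same cells. The 10 most contrasted ones with at least 200 UMIs in the medium tumor were 2810417H13Rik, Pbk, Smc2, Rrm2, Spc25, Hist1h1e, Knstrn, Pttg1, Tacc3 and Tk1. The highest of them, 2810417H13Rik, was at 191 CPM in the member-high cells and 11.4 CPM in the rest, a ratio of 9.40 with 10 CPM added to both, and Tk1, thymidine kinase of DNA synthesis, closed the group at 4.37. Of 37 other mitosis genes that could be measured, 30 were 2-fold or more higher in the member-high cells, as were 23 of 35 DNA replication genes. The likeness covers cells of 1 tumor and says nothing of a shared control.

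Of the 281 cells highest in 65 replication genes and the 281 cells highest in the members, 150 were the same (53.4% of each set). The members were then compared between cells high only in the replication genes and cells high only in the other members. The choice of cells sets these ratios below 1, and only the order among the members is described. Cdk1 stood near the upper end, with 78.3 CPM in replication-only cells and 143 CPM in member-only cells (ratio 0.547, 0.424 to 0.701), together with Hmgb2 at 0.484 (0.434 to 0.539) and Top2a at 0.458 (0.351 to 0.593). Bub1 had the highest ratio, 0.740, but its interval was wide, 0.341 to 1.57. At the lower end, Cenpf was at 19.0 against 235 CPM (0.0811, 0.0511 to 0.123) and Tpx2 at 10.2 against 119 CPM (0.0856). Cdc20, Ccnb1, Ccnb2 and Ube2c lay between 0.126 and 0.132, and Ccna2 at 0.362 (0.252 to 0.512) was above all 4 of them beyond the counting intervals. Cenpf, Tpx2, Ube2c, Cdc20, Ccnb1 and Ccnb2 thus lay below Cdk1, Hmgb2 and Top2a with intervals that did not overlap.

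**Figure D2:**
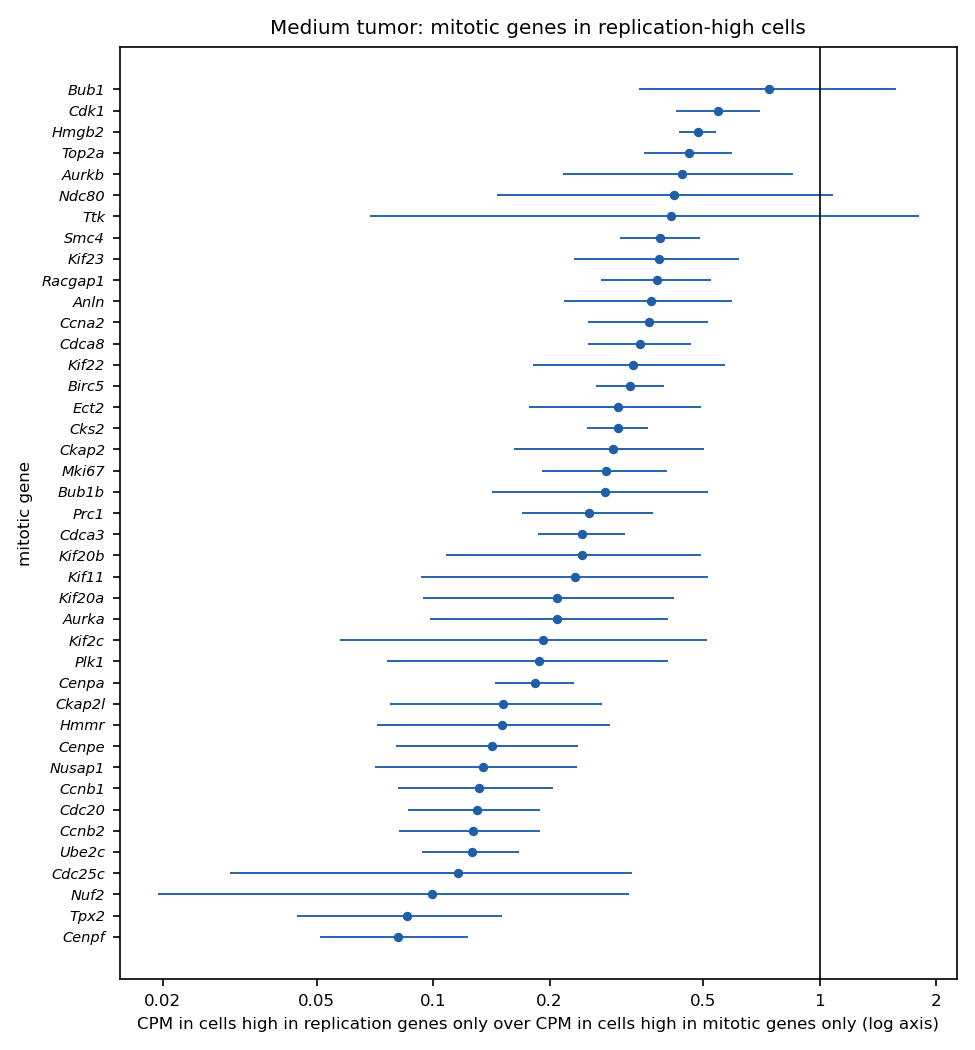
CPM of each mitotic gene in medium-tumor cells high in replication genes only, divided by its CPM in cells high in the other mitotic genes only, on a log axis, with 95% counting intervals. Ratios run from 0.0811 for Cenpf to 0.740 for Bub1, with Cdk1, Hmgb2 and Top2a close to the upper end.

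Cell classes were called on clusters that were made without the members and without other listed cell cycle genes. A class needed at least 3 of its markers and a clear lead over other classes, a rule set with the data in view. The medium tumor had 2089 cells that were epithelial-like, 235 macrophage-like with 12 of 12 markers detected, 74 mesothelial-like, 67 stromal-like and 39 endothelial-like. Clusters 6 and 11 stayed unnamed with 308 cells, the former led by Inhba and Bmp2 with 2 of 11 epithelial markers and the latter with epithelial and macrophage markers together. The large tumor had 932 cells that were epithelial-like, 253 macrophage-like with 8 of 12 markers, 50 stromal-like, 11 endothelial-like and 287 unnamed. Scrublet called 0 and 9 doublets in the medium and large tumor, so mixed cells may remain in both.

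Macrophage-like cells held the mitotic genes at a level of the same order as epithelial-like cells. In the medium tumor the member sum was 1420 CPM (1344 to 1500) in macrophage-like cells and 1289 CPM (1272 to 1307) in epithelial-like cells, a ratio of 1.10 (1.04 to 1.17). The sum of the large tumor was 1784 CPM (1602 to 1981) in macrophage-like cells and 2245 CPM (2169 to 2323) in epithelial-like cells, a ratio of 0.795 (0.710 to 0.888), or 0.677 (0.605 to 0.756) without enterocyte- and goblet-like cells. The order of the classes thus differed between the tumors in these sums. As a mean over cells, the ratio was 1.23 in the medium tumor and 0.984, close to 1, in the large tumor. Across single genes of the medium tumor, 25 members had at least 200 UMIs in both classes together. Of these, 2 were 2-fold or more higher in macrophage-like cells and 1 was 2-fold or more lower, beside 7.44% higher and 26.3% lower among all 7139 genes measured. For the large tumor, 0 of 4 members passed 2-fold either way, beside 8.94% and 19.2% of 1175 genes.

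The macrophage-like signal also came from few cells. Of the 235 cells of the medium tumor, 42 had 5 or more members and held 84.4% of the member UMIs of the class, at 5666 CPM against 281 CPM in the other 193 cells. The epithelial markers summed to 500 CPM in the 42 cells and to 689 CPM in the other 193, against 12224 CPM in epithelial-like cells. The macrophage markers summed to 24693 CPM in the 42 cells and 32491 CPM in the others. The 42 cells thus carried no more epithelial marker RNA than the rest of their class, and they carried 3161 CPM of replication genes against 703 CPM. In the large tumor 19 of 253 macrophage-like cells had 5 or more members and held 175 of the 350 member UMIs, with epithelial markers at 51.3 CPM against 249 CPM in the other cells.

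With each cell of the medium tumor thinned to 2500 UMIs, 15.7% of macrophage-like cells (11.3 to 21.0) and 11.7% of epithelial-like cells (10.4 to 13.2) still had 5 or more members, and the intervals overlapped. With 10 or more members the shares were 9.79% (6.31 to 14.3) and 4.74% (3.87 to 5.74), and the intervals did not overlap. Without thinning the shares were 17.9% and 21.6%, with median depths of 3508 and 5933 UMIs, so the order of the classes in this share turned with depth. Thinned to 500 UMIs, the depth that the large tumor allows, 3 or more members were found in 15 of 235 macrophage-like cells (6.38%, 3.62 to 10.3) and in 117 of 2089 epithelial-like cells of the medium tumor (4.65 to 6.67%). The same share in the large tumor was 8.70% (5.53 to 12.9) and 8.69% (6.96 to 10.7). Without enterocyte- and goblet-like cells, 81 of 675 epithelial-like cells had 3 or more members (9.64 to 14.7%). No cell was left out as too shallow.

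**Figure D3:**
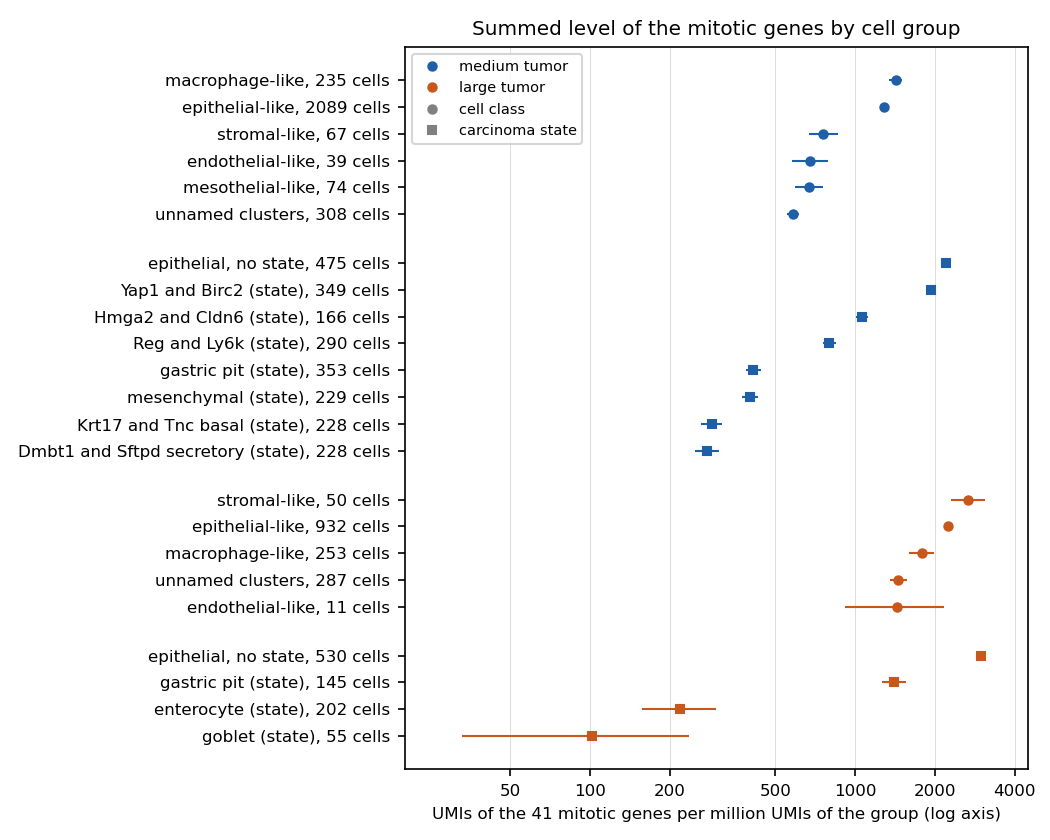
Summed level of the 41 mitotic genes in CPM of each cell class (circles) and carcinoma state (squares), on a log axis, in the medium (blue) and large tumor (orange), with exact Poisson intervals and the number of cells. In the medium tumor macrophage-like cells at 1420 CPM stand beside epithelial-like cells at 1289 CPM, and the states run from 277 CPM to 1934 CPM apart from the epithelial cells without a state.

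The make-up of the member UMIs differed between macrophage-like and epithelial-like cells for some genes. Mki67 made up 4.11% of the member UMIs of macrophage-like cells and 1.82% of those of epithelial-like cells in the medium tumor, a ratio of 2.25 (1.66 to 3.01). In the large tumor the shares were 2.29% and 0.544%, a ratio of 4.20 (1.58 to 10.2), from 8 and 18 UMIs. Mki67 was the only member of the 41 whose interval excluded 1 on the same side in both tumors. In CPM, Mki67 was at 58.4 in macrophage-like and 23.5 in epithelial-like cells of the medium tumor (2.48-fold, 1.83 to 3.32), and at 40.8 and 12.2 in those of the large tumor.

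Ckap2l, a spindle microtubule protein, took 2.13 times (1.37 to 3.20) the share in macrophage-like cells of the medium tumor, from 27 UMIs, and 1.40 times (0.356 to 4.02) in the large tumor. Cdca8 was at 1.54 (1.13 to 2.07) and Nusap1 at 1.58 (1.00 to 2.39) in the medium tumor. Cdca8 was at 0.780 in the large tumor, where Nusap1 had 3 UMIs in macrophage-like cells. On the other side, 6 members took a smaller share in macrophage-like cells of the medium tumor with intervals below 1. One of them, Kif20b, had 2 UMIs there and is given no value. The others were Ect2 at 0.361 from 5 UMIs, Kif23 at 0.440 from 9, Cdk1 at 0.515 from 22, Smc4 at 0.704 from 45 and Cks2 at 0.730 from 104. Smc4 and Cks2 were at 0.654 and 0.770 in the large tumor with intervals that reached above 1, and Cdk1 was at 0.990. Ect2 and Kif23 had 1 and 3 UMIs in macrophage-like cells there and could not be read. Other members had intervals outside 1 in the large tumor alone, with Birc5 at 1.52 (1.02 to 2.19), Hmgb2 at 1.24 (1.00 to 1.53) and Ube2c at 0.517 (0.244 to 0.973), and with Ccnb1 at 0 of 350 UMIs. By role, the ratio of macrophage-like to epithelial-like CPM in the medium tumor was 1.41 (1.17 to 1.69) for the chromosomal passenger subunits, 1.40 (1.15 to 1.68) for the spindle genes, 1.203 (1.01 to 1.43) for the kinetochore genes and 1.17 (1.06 to 1.29) for chromosome structure. None of these 4 had an interval outside 1 in the large tumor, where the anaphase-promoting complex partners were at 0.411 (0.222 to 0.703) and CDK1 with its cyclins at 0.621 (0.480 to 0.791). The cytokinesis genes summed to 74.9 CPM in macrophage-like and 110 CPM in epithelial-like cells of the medium tumor (0.678, 0.524 to 0.864), and to 96.8 and 151 CPM in the large tumor (0.641, 0.379 to 1.02).

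**Figure D4:**
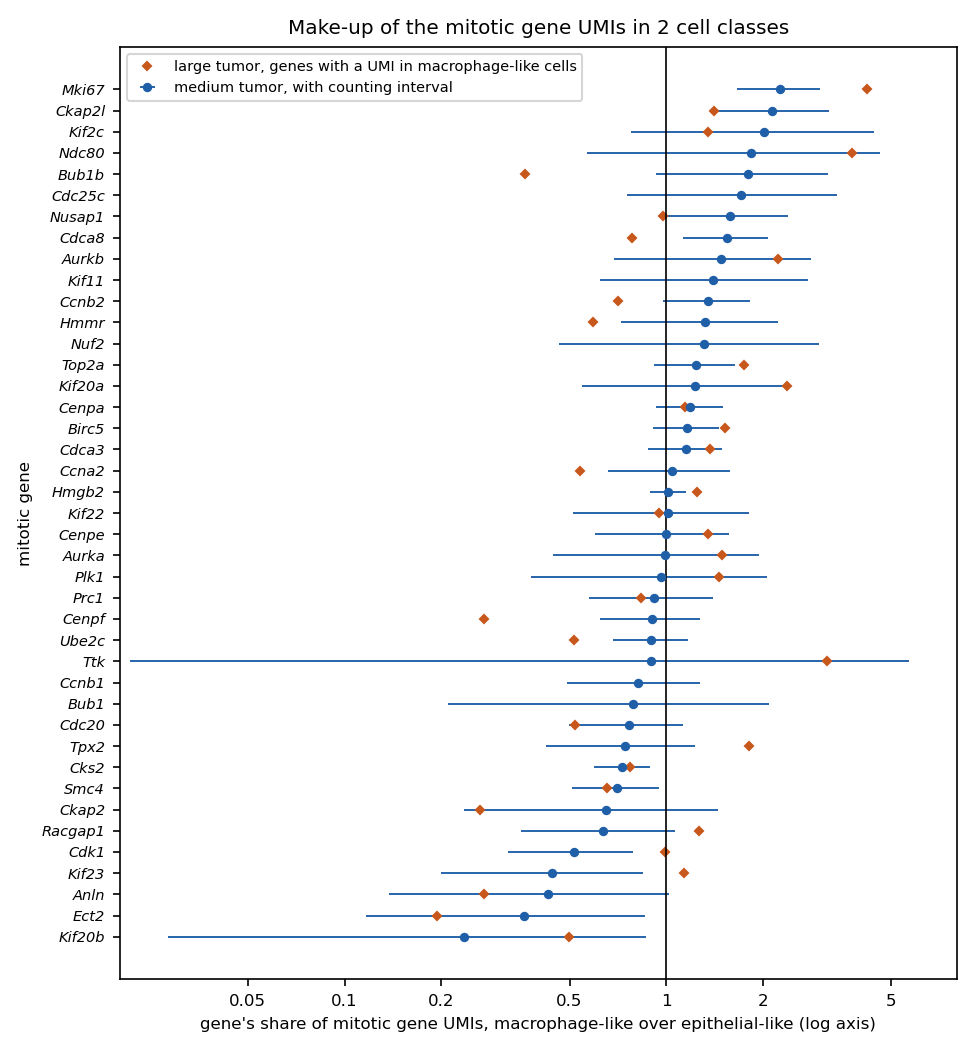
Share of each gene in the mitotic gene UMIs of macrophage-like cells divided by its share in those of epithelial-like cells, on a log axis, for the medium tumor (circles with 95% counting intervals) and the large tumor (diamonds). In both tumors Mki67 has the highest ratio, 2.25 and 4.20, and points of the large tumor with 3 macrophage UMIs or fewer cannot be read.

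The other non-epithelial classes of the medium tumor lay below the epithelial-like cells. The member sum was 759 CPM (668 to 859) in 67 stromal-like cells, 676 CPM (577 to 788) in 39 endothelial-like cells and 672 CPM (593 to 758) in 74 mesothelial-like cells, with overlapping intervals. In stromal-like cells 4 cells with 5 or more members held 73.0% of the 252 member UMIs, and their epithelial markers summed to 426 CPM against 1328 CPM in the other 63 cells. In endothelial-like cells, by contrast, 6 cells held 70.9% of 165 UMIs, with epithelial markers at 8168 CPM against 3752 CPM in the others. In mesothelial-like cells the 7 cells with 5 or more members had epithelial markers at 5157 CPM against 2409 CPM, macrophage markers at 2841 CPM against 726 CPM, and a median Scrublet doublet score of 0.161 against 0.0518. The median score was also higher with 5 or more members in endothelial-like cells (0.0993 against 0.0721) and stromal-like cells (0.0868 against 0.0642). It was lower in macrophage-like cells (0.0275 against 0.0317). Epithelial RNA moved with the members in the endothelial-like and mesothelial-like cells, and macrophage RNA in the mesothelial-like cells. The part of these RNAs and of doublets in the levels was not tested.

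In the large tumor the stromal-like cells stood highest of the named classes, at 2671 CPM (2297 to 3088) from 182 UMIs in 50 cells, 1.19 times (1.02 to 1.38) the epithelial-like cells. Without enterocyte- and goblet-like cells the epithelial-like level was 2635 CPM and the ratio 1.01 (0.868 to 1.18), an interval that includes 1. There, 13 cells held 79.7% of the UMIs, with epithelial markers at 593 CPM against 864 CPM in the other 37 cells. Stromal-like cells of the medium tumor were at 0.589 times (0.518 to 0.667) the level of the epithelial-like cells. Hmgb2 was at 426 CPM from 29 UMIs in stromal-like cells of the large tumor and at 90.4 CPM from 30 UMIs in those of the medium tumor. The 11 endothelial-like cells of the large tumor held 23 member UMIs in all.

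**Figure D5:**
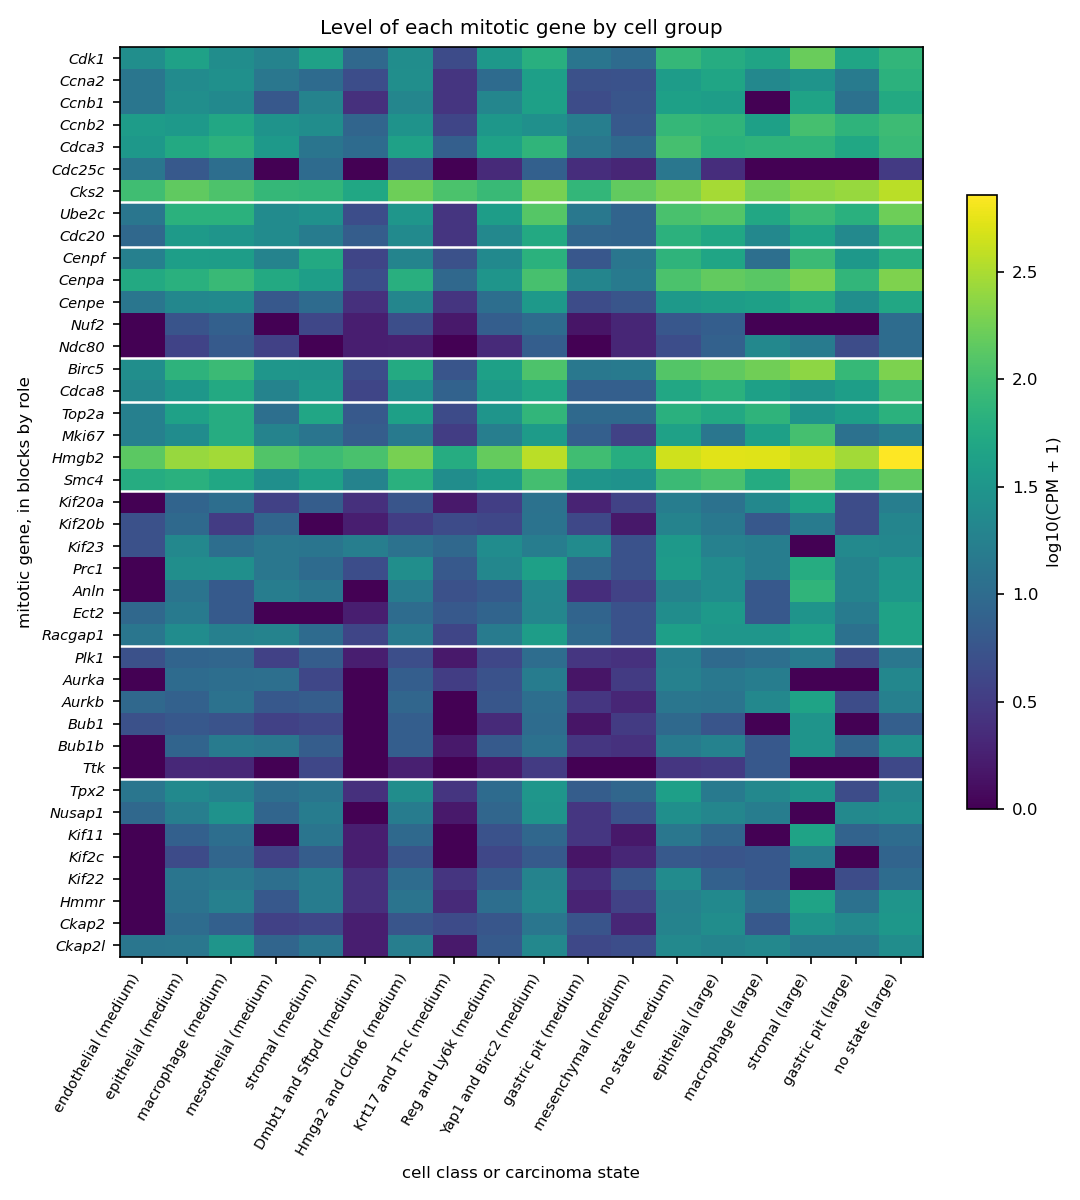
Level of each mitotic gene, as log10(CPM + 1), in the classes and states of both tumors with at least 100 member UMIs, with genes in blocks by role. Hmgb2 and Cks2 are the brightest rows, and the columns of the Dmbt1 and Sftpd state and of the Krt17 and Tnc state are dark for most other genes.

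Carcinoma states of the medium tumor were named from state markers that hold no cell cycle gene, and they differed more than the classes did. Cells of the state named for Yap1 and Birc2, neighbors on chromosome 9, had 1934 CPM (1892 to 1977) of the members in 349 cells. The Hmga2 and Cldn6 state was at 1061 CPM (1005 to 1119), the Reg and Ly6k state at 800 CPM (758 to 845) and the gastric pit state at 413 CPM (386 to 440). The mesenchymal cells of cluster 6 were at 402 CPM (374 to 431), the Krt17 and Tnc basal state at 287 CPM (263 to 314) and the Dmbt1 and Sftpd state, with its secreted defense proteins, at 277 CPM (249 to 307). The intervals of the last pair overlapped, as did those of the gastric pit and mesenchymal states, although gastric pit lay between 1094 and 1654 CPM in 4 alternatives, with mesenchymal between 403 and 586 CPM. Median depth was 9718 UMIs in the Yap1 and Birc2 state and between 4462 and 6784 in the others.

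The epithelial-like cells that received no state had the highest level, 2194 CPM in 475 cells. Most of it lay in cluster 4, at 2864 CPM, whose leading genes Ccnb2, Cdk1, Cdca3, Cdc20, Birc5, Hmgb2 and Ube2c are members, although none was used for clustering. Its level is therefore not independent of how the cluster arose. The other cluster without a state, with Ero1l, Bnip3 and Ndrg1 among its leading genes, was at 489 CPM. When genes that follow the members within clusters were also kept out of the clustering, a setting added with the data in view, the Yap1 and Birc2 state was at 1907 CPM, Reg and Ly6k at 771, mesenchymal at 409, Dmbt1 and Sftpd at 283 and Krt17 and Tnc at 266 CPM. Hmga2 and Cldn6 moved to 676 CPM and gastric pit to 1139 CPM, and the order of the states depended on the clustering. Over all alternatives, Hmga2 and Cldn6 ranged from 383 CPM with cycle genes kept to 2246 CPM with 20 principal components, where it stood above Yap1 and Birc2 at 1810 CPM. The Yap1 and Birc2 state was at 490 CPM with cycle genes kept, below Reg and Ly6k at 793 CPM, and lay between 1810 and 1972 CPM in the others. Gastric pit ranged from 379 to 1654 CPM, Dmbt1 and Sftpd from 254 to 575 CPM, Krt17 and Tnc from 266 to 393 CPM and mesenchymal from 303 to 586 CPM.

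Between the Yap1 and Birc2 state and the Dmbt1 and Sftpd state, the member sum differed 6.98-fold (6.29 to 7.77), and all alternatives kept the direction. It was 1.93-fold with cycle genes kept for clustering, 3.43-fold at a clustering resolution of 0.4 and 3.498-fold with states called cell by cell. All 12 members with at least 200 UMIs in both states together were 2-fold or more higher in the former, beside 12.7% of 3370 genes. None of them reached 200 UMIs in the Dmbt1 and Sftpd state alone, so they passed the minimum through the state where they are high, and the count is given as a description. Ube2c was at 126 CPM against 3.76 CPM (526 and 5 UMIs, 33.6-fold, 14.3 to 104), and Birc5 at 113 against 3.76 CPM (30.0-fold, 12.7 to 92.7). Cenpa was at 104 against 3.76 CPM and Cenpf at 66.2 against 3.01 CPM. Hmgb2 and Cks2 differed least of the 12, at 369 against 108 CPM (3.43-fold, 2.88 to 4.09) and 185 against 49.7 CPM (3.72-fold, 2.89 to 4.85). The 6 mitotic kinases together had 1 UMI in the Dmbt1 and Sftpd state, and were at 56.4 CPM in the Yap1 and Birc2 state.

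In thinned cells, 21.5% of the Yap1 and Birc2 state (17.3 to 26.2) had 5 or more members, against 0.877% of the Dmbt1 and Sftpd state (2 of 228 cells) and 0.439% of the Krt17 and Tnc state (1 of 228). Among other pathway genes, 7 of 18 measurable mitosis genes and 12 of 18 replication genes were 2-fold or more higher in the Yap1 and Birc2 state than in the Dmbt1 and Sftpd state. The share among all 3370 genes measured was 12.7%. These genes could also pass the minimum of 200 UMIs through the state where they are high, so the counts are a description.

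Among epithelial-like cells of the large tumor, enterocyte-like and goblet-like clusters nearly lacked the members. Enterocyte-like cells, with Fabp1 and Fabp2 among their leading genes, had 41 member UMIs in 202 cells, 219 CPM (157 to 298). Goblet-like cells, with Zg16 and Fcgbp among theirs, had 5 UMIs in 55 cells, 102 CPM (33.0 to 237). Gastric pit cells were at 1403 CPM (1268 to 1549) in 145 cells. Clusters without a state were at 3933 CPM for cluster 5, 2569 CPM for cluster 7, 866 CPM for cluster 3 and 830 CPM for cluster 10. Ly6a, Ube2c and Cenpa were among the leading genes of cluster 5. As in the medium tumor, the cluster with members among its leading genes is not independent of them. Its median depth was 2589 UMIs against 1068.5 in the class.

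The mitotic genes stood higher in epithelial-like cells of the large tumor than in those of the medium tumor. The sum was 2245 CPM against 1289 CPM, a ratio of 1.74 (1.68 to 1.81), and 2.04 (1.97 to 2.12) without the enterocyte- and goblet-like cells, a choice made with the data in view. The classes were built from different clusters in the tumors. Of 27 members with at least 200 UMIs, 9 were 2-fold or more higher in the large tumor and 0 were 2-fold or more lower, beside 6.1% higher and 17.5% lower of 7193 genes. The median log2 ratio was 0.65 for these 27 members and -0.13 for all genes measured. Of other mitosis genes, 5 of 34 were higher and 3 of 34 lower, with a median of 0.01. Replication genes had 2 of 34 higher and 4 of 34 lower, with a median of 0.14. Without the enterocyte- and goblet-like cells, 13 of 27 members were higher and 0 lower, beside 4.99% and 17.3% of 7140 genes. The medians were then 0.88 for the members and -0.12 for all genes. Other mitosis genes had 6 of 34 higher and 3 of 34 lower (median 0.22), and replication genes 6 of 34 and 1 of 34 (median 0.37).

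The 9 members were Ect2 at 2.40-fold (1.72 to 3.28), Cenpa at 2.26-fold (1.94 to 2.61), Ccnb2 at 2.12-fold, Cks2 at 2.10-fold (1.90 to 2.33), Birc5 at 2.08-fold, Hmgb2 at 2.07-fold (1.91 to 2.23), Cdca8 at 2.07-fold, Ccna2 at 2.06-fold and Anln at 2.03-fold. Cenpa was at 146 CPM in the large tumor and 64.9 CPM in the medium tumor, and Hmgb2 at 536 against 259 CPM. Mki67 went the other way, with 12.2 CPM (18 UMIs) in the large tumor and 23.5 CPM (379 UMIs) in the medium tumor, a ratio of 0.519 (0.304 to 0.831). Tpx2 was at 14.2 against 21.5 CPM (0.663, 0.405 to 1.03) and Kif22 at 6.78 against 11.9 CPM (0.572, 0.270 to 1.08), with intervals that include 1. The spindle genes together had the smallest ratio of the 8 roles, 1.27 (1.08 to 1.49), and the chromosomal passenger subunits the largest, 2.08 (1.83 to 2.35).

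Macrophage-like cells of the large tumor were at 1.26 times (1.11 to 1.42) those of the medium tumor. Hmgb2, the only member with 200 UMIs there, was at 530 against 290 CPM (1.83-fold, 1.44 to 2.30). Mki67 was at 40.8 CPM (8 UMIs) against 58.4 CPM (53 UMIs). Ccnb1 had 0 UMIs in macrophage-like cells of the large tumor, with an upper limit of 18.8 CPM, and was at 22.0 CPM in those of the medium tumor. Depth, animal and library differed together with tumor size, and their part in these ratios cannot be told apart.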

How the data were processed

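The authors made single-cell libraries with 10x Genomics 3′ chemistry and processed them with Cell Ranger against mm10, per the labels; versions are not given in the sources used here. The deposited tables hold raw counts of UMIs per gene and cell, 1 table per tumor, with the technical replicates pooled. The 13 mitochondrial gene rows hold 0 UMIs. All columns were used, and tables were joined to tumors by the library name in the labels.

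Cells of each tumor were clustered separately in Seurat 5.3.0 (R 4.3.3) with 2000 variable genes, 10 principal components and a resolution of 0.8. The 41 members and 160 other listed cell cycle genes were kept out of the clustering. A cluster was named for a class with at least 3 markers, each in 10% of its cells and at 25% of the CPM of the highest cluster, and with other classes under 75% of its share of markers. Scrublet (scanpy 1.11.5, Python 3.11.15) scored doublets. Sums, ratios, shares and thinning used numpy 2.4.6 and scipy 1.17.1, with exact 95% Poisson, conditional binomial and Clopper-Pearson intervals. Calls across genes needed 200 UMIs in the compared cells together and a 2-fold ratio. Depth ranged from 2704 to 47440 UMIs per cell in the medium tumor and from 529 to 11294 in the large tumor.

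All 41 members were reported by role, and outside the list the 10 genes with at least 200 UMIs most contrasted between cells high in the members and the rest. The alternatives changed the clustering, the calling of classes, doublets, weights, thresholds, thinning and scaling (TMM, edgeR 4.0.16). Clustering also without genes that follow the members, states called cell by cell, and leaving out enterocyte- and goblet-like cells or the 5 most abundant members were added after seeing the data. The members and lists were chosen with earlier results of these data known. The scripts were tested on simulated counts. A further allele of the mice is not reported here.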

Additional observations from a re-analysis of the deposited data

Results flagged for a closer look

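The order of the classes turned between the tumors for 2 comparisons. Macrophage-like over epithelial-like cells gave a ratio of 1.10 (1.04 to 1.17) in the medium tumor and 0.795 (0.710 to 0.888) in the large tumor, or 0.677 (0.605 to 0.756) there without enterocyte- and goblet-like cells. As a mean over cells, the macrophage-like ratio of the large tumor was 0.984, close to 1. Stromal-like over epithelial-like cells gave 0.589 (0.518 to 0.667) in the medium tumor and 1.19 (1.02 to 1.38) in the large tumor. Without enterocyte- and goblet-like cells the stromal-like ratio of the large tumor was 1.01 (0.868 to 1.18), which ends the turn for stromal-like cells. Each tumor is 1 sample, so the difference between the tumors was not tested.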

How the results depend on the processing

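No paired analysis was possible because each tumor size is 1 table with its technical replicates pooled. Over 12 results and 94 alternative values, 53 stayed close and 41 moved, and none of the ratios turned to the other side of 1; the cause was not tested. Levels, shares and counts have no direction, the order of the 2 classes in the share with several members turned without thinning, and the state levels, which moved further, stand in the report. With cycle genes kept for clustering, resolutions of 0.4 and 1.2, 20 principal components and clustering also without genes that follow the members, the epithelial-like level of the medium tumor (1289 CPM) was 1211, 1196, 1201, 1206 and 1198 CPM, and its macrophage-like over epithelial-like ratio (1.10) was 1.24, 1.21, 1.18, 1.19 and 1.22. The Yap1 and Birc2 over Dmbt1 and Sftpd ratio (6.98) was 1.93 with cycle genes kept, 3.43 at resolution 0.4 and 5.98 with 20 components, and the epithelial-like large over medium ratio (1.74) was 1.86 at resolution 1.2, 1.87 in the clustering without genes that follow the members and 1.82 with TMM. Called cell by cell, the epithelial-like level was 1188 CPM, the macrophage-like over epithelial-like ratio of the large tumor (0.795) was 0.658 and the state ratio 3.498. As a mean over cells, the levels of epithelial-like and macrophage-like cells were 1013 and 1244 CPM, their ratio 1.23 in the medium and 0.984 in the large tumor, the state ratio 6.19 and the large over medium ratio 1.51. Without enterocyte- and goblet-like cells, the last was 2.04 and the macrophage-like over epithelial-like ratio of the large tumor 0.677. Without the 5 most abundant members, the large over medium ratio was 1.45 and the state ratio 9.58. The share with several members was 18.3% and 4.74% of epithelial-like and 21.7% and 9.79% of macrophage-like cells at 3 and 10 members, and 21.6% of epithelial-like cells unthinned. The stromal-like over epithelial-like ratio of the medium tumor (0.589) was 0.691 in the clustering without genes that follow the members, 0.4005 cell by cell, 0.674 without the highest Scrublet scores and 0.829 as a mean over cells, and had no value at resolution 0.4 and 20 components, where no cluster was named stromal-like. That of the large tumor (1.19) was 1.43 cell by cell, 1.48 as a mean over cells and 1.01 without enterocyte- and goblet-like cells. The large tumor, with 4571 member UMIs, limits values of single genes.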
